A study of Homo sapiens with 2 samples.

Results

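The 34 genes described here are immediate early genes, which answer growth factor, serum and stress signals, together with genes that feed back on the MAP kinase pathway. They were taken by name from a deposited table of 37364 genes, in which all 34 were found as 1 row each. The table comes from D407, a human cell line that the labels call adult retinal pigment epithelium (RPE). It holds 2 libraries of oligo(dT)-enriched RNA. Cells of the first library had received clusterin, an extracellular chaperone, and the second library came from control cells. Both cultures grew in DMEM with fetal bovine serum and antibiotics. For the dose, the duration and the handling of the control cells, nothing is given in the sources used here. The question the series put was which transcripts differ between cells with and without clusterin. With 1 library per group, no difference below has a replicate check, and no test between the groups was made.

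Growth factors that bind receptor tyrosine kinases switch on RAS, which activates the kinases RAF, MEK and ERK in turn. ERK phosphorylates ETS-type partners of the transcription factor SRF, and within minutes the immediate early genes, FOS and EGR1 among them, are transcribed without new protein synthesis. Another set of targets, the dual specificity phosphatases, Sprouty and SPRED proteins, acts back on the pathway and dampens it. Because these transcripts are made and degraded quickly, their levels are often read as a measure of recent pathway activity.

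Levels are in RPKM, reads scaled by transcript length and library total. Whole reads were recovered from the deposited values for 32 of the 34 genes, with library totals of 33177095 reads for clusterin and 38236987 for the control. A ratio is the clusterin RPKM over the control RPKM, and its 95% interval in parentheses is an exact one that covers counting error only. The log2 difference is log2((clusterin RPKM + 1)/(control RPKM + 1)), which understates differences of low genes. Over the 13244 genes that averaged 1 RPKM or more its median was -0.06, so most genes lay slightly lower in the clusterin library. Of the cell type markers examined, the simple epithelial keratins KRT7, KRT8, KRT18 and KRT19 summed to 1003 RPKM in the clusterin library and 984 in the control, whereas RPE65, RLBP1, LRAT and TTR, which define mature RPE, were listed at 0 in both. The fifth RPE marker, BEST1, a chloride channel, stood at 1.73 RPKM with clusterin and 2.14 in the control. Of 3 fibroblast markers 2 were above 1 RPKM, with sums of 70.6 RPKM with clusterin and 72.1 in the control, and none of 5 endothelial and leukocyte markers was. In a bulk sample, fewer cells that express a gene and less RNA per cell cannot be told apart.

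Differences between the libraries were small. EGR1, KLF4, PHLDA1, IER5 and DUSP1 had counting intervals wholly above a ratio of 1, and those of IER3, ZFP36L1, DUSP7 and FOSL2 lay wholly below it. Counted together, 15 of the 26 genes that averaged 1 RPKM or more had a log2 difference above 0, or 57.7%, where 29.8% of all 13244 genes did. Their median was 0.02, against -0.06 for all genes, and 18 of the 26 lay above that median. The range ran from -0.20, in ZFP36, to 0.18, in DUSP6. This range leaves out the 8 genes with a mean under 1 RPKM. Of these, EGR1, at 0.31, and KLF4, at 0.23, lay above it, and the mean of IER3 rests on a doubtful length. None of the 26 lay 25% or more above the control or 20% or more below it on this scale, and none reached 2-fold. Of all genes, 1.36% were that far above and 3.29% that far below, and 0.219% reached 2-fold in either direction. Over the span of its own locus IER3 would average more than 1 RPKM, with a log2 difference of -0.43, and would be the 1 gene past the lower limit. By the ratio of reads, 2 of the 31 genes with at least 20 reads were 25% or more above the control, EGR1 and KLF4, and 2 were 20% or more below it, IER3 and ZFP36. In the same terms 5.8% of all genes lay above and 13.8% below, so both shares of 6.45% were near or under the background.

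Counting intervals lay above a ratio of 1 for 5 of the 32 genes with recovered reads, EGR1, KLF4, PHLDA1, IER5 and DUSP1. That is 15.6%, where 3.94% of all genes had such an interval. They lay below 1 for 4 genes, IER3, ZFP36L1, DUSP7 and FOSL2, or 12.5%, against 19.9% of all genes. The split depends on the scaling: with every ratio divided by 0.951, the median over the 13748 genes with at least 100 reads, a choice made after seeing the data, 13 intervals lay above 1 and 1, that of IER3, below, where 9.32% of all genes lay above and 8.60% below. In that scaling 11 of the 25 genes with reads that averaged 1 RPKM or more had an interval above 1, or 44.0%, against 12.2% of all such genes, and 0 of the 25 had one below, against 10.1%. With the ratios not divided, 3 of the same 25 had an interval above 1, or 12%, against 4.32% of all such genes. Another 3 had one below 1, or 12%, against 26.1%. In the authors' deposited table, q lay under 0.05 for 3 of the 33 genes above 0 with a higher clusterin level, EGR1, IER5 and DUSP1, and for 1 with a lower level, IER3. Those are 9.09% and 3.03%, and among all genes above 0 the shares were 1.63% with a higher and 10.4% with a lower level. These counts describe 2 libraries, and genes of 1 pathway are not independent of each other.

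The genes spanned almost 4 orders of magnitude, and the same 9 genes were the highest in both libraries. MYC, a growth-promoting transcription factor, stood highest at 163 RPKM in the clusterin library and 159.7 in the control. DUSP1, a nuclear phosphatase that inactivates p38, JNK and ERK, followed at 131 RPKM with clusterin and 125 in the control, and JUNB, an AP-1 subunit, stood at 86.4 RPKM with clusterin and 87.2 in the control. These 3, together with JUND, IER2, FOSL2, IER5, NR4A1 and DUSP5, made up the 9 genes at 10 RPKM or more in both libraries. Another 17 had a mean between 1 and 10 RPKM, and the remaining 8 (FOSB, EGR1, EGR2, EGR3, IER3, KLF2, KLF4 and SPRY4) had a mean under 1 RPKM. EGR3 was listed at 0 in both libraries. Ranked by clusterin level, 14 of 31 neighbouring pairs had counting intervals that overlapped in both libraries, so the middle of the order, from SRF to ETV4 for example, is not resolved.

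**Figure D1:**
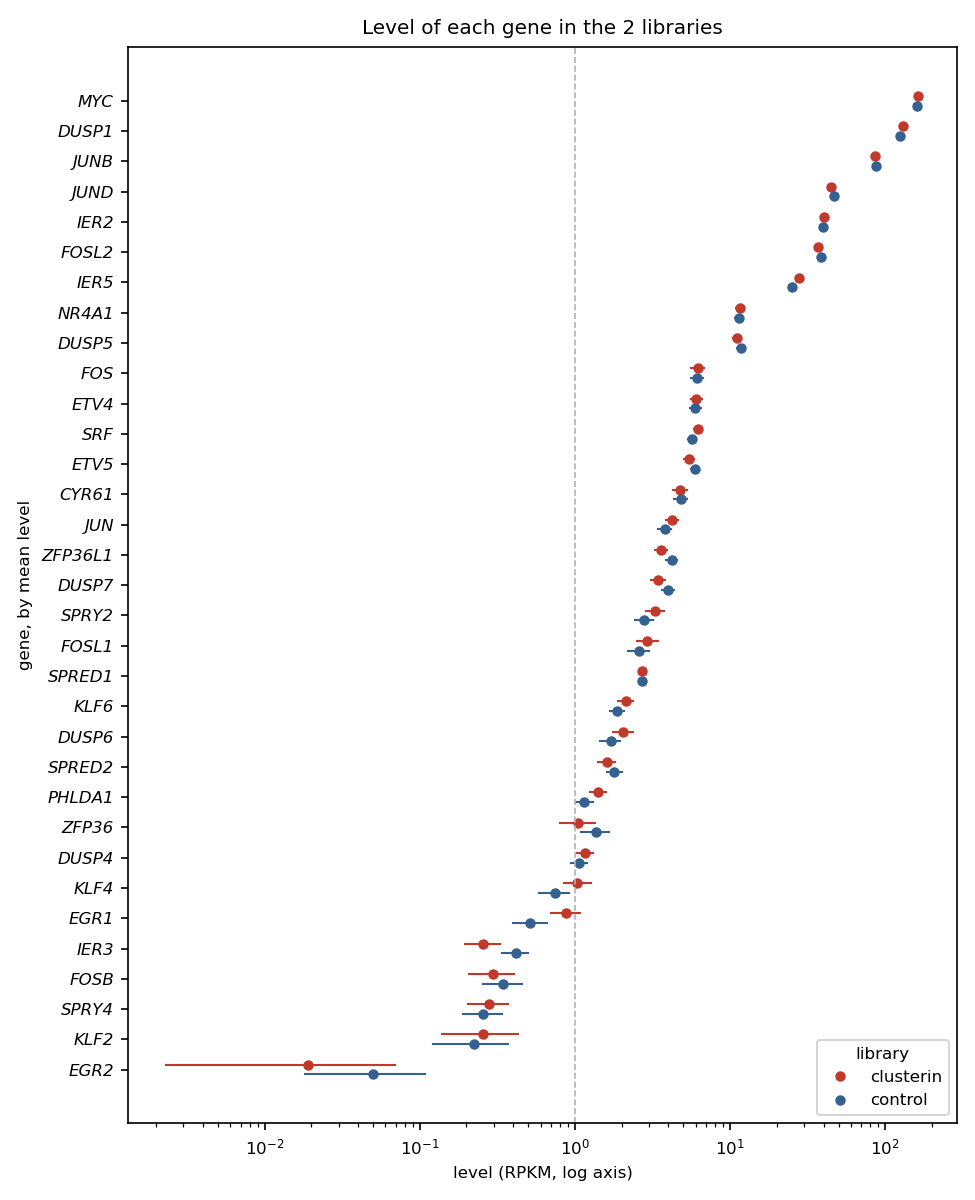
Level of 33 genes in RPKM on a log axis, ordered by mean level, with the clusterin library (red) above the control library (blue) for each gene; bars are 95% Poisson counting intervals, absent for SPRED1, and EGR3, listed at 0, is left out. MYC at 163 RPKM with clusterin and 159.7 in the control and EGR2 at 0.0191 RPKM with clusterin and 0.0498 in the control are the ends of the range, and the 2 libraries lie close together for most genes.

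The AP-1 subunits pair, typically a FOS-family with a JUN-family protein, and the dimer binds the AP-1 site. JUNB supplied 47.5% of their summed RPKM in the clusterin library and 47.0% in the control, JUND 24.7% with clusterin and 25.3% in the control, and FOSL2 20.3% with clusterin and 20.8% in the control. The classical pair FOS and JUN supplied little: FOS had 3.40% with clusterin and 3.28% in the control, and JUN 2.33% with clusterin and 2.04% in the control. JUNB stood at 86.4 RPKM with clusterin and 87.2 in the control, a ratio of 0.991 (0.955 to 1.03), and JUND at 44.8 RPKM with clusterin and 46.9 in the control, a ratio of 0.956 (0.908 to 1.01). FOS stood at 6.19 RPKM in the clusterin library and 6.08 in the control, from 443 clusterin and 502 control reads; its ratio was 1.02 (0.893 to 1.16). JUN stood at 4.24 RPKM with clusterin and 3.78 in the control, with a ratio of 1.12 (0.985 to 1.28). FOSL1, a FOS relative without the strong activation domain of FOS, was at 2.93 RPKM with clusterin and 2.59 in the control, with a ratio of 1.13 (0.905 to 1.41). All these intervals included a ratio of 1. The median log2 difference of the 6 measured subunits was 0.00. It was -0.04 among those that averaged 5 RPKM or more, 0.07 with the control rescaled to an all-gene median of 0, and 0.05 after quantile normalization. FOSL2 was the only one of the 7 with an interval beyond 1, at 36.9 RPKM in the clusterin library and 38.6 in the control, a ratio of 0.955 (0.920 to 0.992). That interval includes the all-gene median of 0.951. FOSB was at 0.295 RPKM with clusterin and 0.346 in the control, from 37 clusterin and 50 control reads; its locus overlaps ERCC1 on the other strand, at 11.6 RPKM with clusterin and 11.5 in the control, and without a stated strand setting the reads of both genes cannot be told apart.

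EGR1, a zinc finger transcription factor that is among the first genes switched on by ERK, had the largest ratio above 1 of the genes with at least 20 reads. It stood at 0.875 RPKM in the clusterin library and 0.517 in the control, from 91 clusterin and 62 control reads. The ratio was 1.69 (1.21 to 2.38), while the log2 difference with the pseudocount of 1 RPKM was only 0.31 because both levels were low. In the authors' deposited table EGR1 had a q of 0.0167, a value that compares the 2 libraries and counts read sampling error only. Its relative EGR2 was almost silent, with 2 clusterin and 6 control reads and a ratio of 0.384 (0.0379 to 2.15).

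The start of EGR1 lies on chromosome 5, and the gene is listed from 138465492 to 138469315 on the plus strand, positions that match RefSeq on GRCh38. RefSeq promoter windows of 300 bases, from 250 bases before to 50 after the start, were found for 25 of the 34 genes, 33 windows in all, since some genes have several starts. The CArG box, which SRF binds, was matched in 3 of these 33 windows, or 9.09%, against 1.29% of 35116 promoters. The FOS window held no match, and bases outside the windows were not searched, so a gene without a match may carry the element elsewhere. The windows with a CArG box are shown because this is the element through which SRF and its partners pass an ERK signal to a gene; capitals mark CArG boxes and any TATAAA match on either strand, and sequences are from RefSeq, GRCh38.p14, on the gene's strand.
EGR1 (chr5:138465229-138465528, plus strand): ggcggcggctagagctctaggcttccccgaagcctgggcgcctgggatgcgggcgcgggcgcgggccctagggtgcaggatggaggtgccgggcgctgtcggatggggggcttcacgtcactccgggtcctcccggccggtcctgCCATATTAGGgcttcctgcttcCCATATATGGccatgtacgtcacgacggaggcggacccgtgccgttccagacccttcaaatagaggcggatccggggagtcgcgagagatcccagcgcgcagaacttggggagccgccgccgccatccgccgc
SRF (chr6:43171019-43171318, plus strand): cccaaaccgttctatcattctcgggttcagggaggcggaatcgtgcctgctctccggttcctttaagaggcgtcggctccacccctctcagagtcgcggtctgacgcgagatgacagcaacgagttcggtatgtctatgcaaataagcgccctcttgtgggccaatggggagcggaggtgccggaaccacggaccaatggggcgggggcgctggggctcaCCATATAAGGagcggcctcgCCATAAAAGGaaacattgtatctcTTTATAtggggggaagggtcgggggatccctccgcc
EGR2 (chr10:62816317-62816616, minus strand): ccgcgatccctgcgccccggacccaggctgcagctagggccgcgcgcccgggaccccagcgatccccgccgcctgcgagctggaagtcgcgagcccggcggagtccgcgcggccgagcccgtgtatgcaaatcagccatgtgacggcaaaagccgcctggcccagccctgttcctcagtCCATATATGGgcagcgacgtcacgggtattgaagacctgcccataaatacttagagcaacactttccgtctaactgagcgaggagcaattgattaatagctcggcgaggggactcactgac

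EGR1 thus carried 2 CArG boxes in the window, from -105 to -96 and from -83 to -74 relative to the start, SRF itself 2, from -30 to -21 and from -10 to -1, and EGR2 had 1, from -71 to -62. The 3 genes differed widely in level: SRF stood at 6.21 RPKM in the clusterin library and 5.68 in the control, a ratio of 1.09 (0.998 to 1.20), and EGR2 was near 0 in both. The CRE (TGACGTCA), bound by the CREB and ATF factors, was matched in 3 of the 33 windows, against 1.85% of all promoters. The windows with a CRE are shown to set a highly expressed feedback gene beside an AP-1 subunit and a decay factor; capitals mark the CRE and any TATAAA match.
DUSP1 (chr5:172771146-172771445, minus strand): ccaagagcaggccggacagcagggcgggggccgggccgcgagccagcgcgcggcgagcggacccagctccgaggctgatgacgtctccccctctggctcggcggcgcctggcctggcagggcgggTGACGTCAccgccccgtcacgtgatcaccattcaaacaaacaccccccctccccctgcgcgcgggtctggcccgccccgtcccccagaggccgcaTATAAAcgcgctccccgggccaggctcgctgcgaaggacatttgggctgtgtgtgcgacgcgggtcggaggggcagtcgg
JUND (chr19:18281573-18281872, minus strand): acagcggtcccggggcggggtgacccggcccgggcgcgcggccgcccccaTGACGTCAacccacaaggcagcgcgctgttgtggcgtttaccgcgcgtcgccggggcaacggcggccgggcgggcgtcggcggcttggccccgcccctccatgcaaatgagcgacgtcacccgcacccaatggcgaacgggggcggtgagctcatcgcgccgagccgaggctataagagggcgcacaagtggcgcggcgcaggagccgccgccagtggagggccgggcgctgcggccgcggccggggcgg
ZFP36L1 (chr14:68793367-68793666, minus strand): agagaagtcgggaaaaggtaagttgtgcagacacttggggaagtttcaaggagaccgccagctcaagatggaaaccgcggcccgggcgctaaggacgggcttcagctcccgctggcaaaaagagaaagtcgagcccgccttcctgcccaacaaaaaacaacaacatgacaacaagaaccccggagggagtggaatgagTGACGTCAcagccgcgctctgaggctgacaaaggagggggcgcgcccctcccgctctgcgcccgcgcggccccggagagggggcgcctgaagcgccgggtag

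DUSP1 paired its CRE, from -125 to -118, with a TATAAA match from -30 to -25. At 131 RPKM in the clusterin library and 125 in the control it stood far above ZFP36L1, at 3.58 RPKM with clusterin and 4.21 in the control, whose CRE lay from -52 to -45. JUND, with a CRE from -200 to -193, lay between them at 44.8 RPKM with clusterin and 46.9 in the control. Of the other motifs, each searched on both strands, the AP-1 site (TGACTCA or TGAGTCA) was matched in 2 of 33 windows (4.95% of all promoters), the EGR site (GCGTGGGCG or GCGGGGGCG) in 4 (5.77%), the GC box (GGGCGG) in 22 (45.0%) and TATAAA in 6 (11.5%). The EGR site and the GC box can overlap each other, so their counts are not separate. A match describes these letters only, and no binding was measured.

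**Figure D2:**
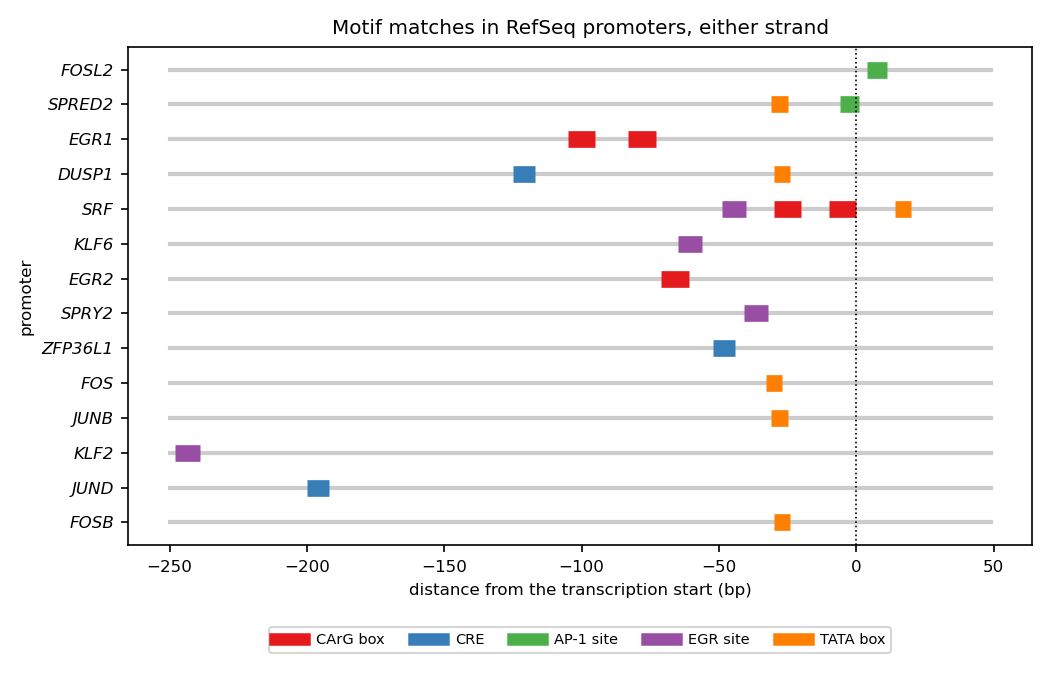
Motif matches in the 14 promoter windows that hold at least 1 match other than a GC box, drawn by distance from the transcription start in bp; grey lines are the windows and colours the motifs. CArG boxes appear in EGR1, SRF and EGR2 and CREs in DUSP1, ZFP36L1 and JUND.

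Among the other transcription factors, all 4 that averaged 1 RPKM or more had a log2 difference above 0, where 29.8% of all such genes did. The 4 were MYC, KLF6, SRF and the orphan nuclear receptor NR4A1. Their differences ran from 0.02 to 0.12, with a median of 0.07. This median was 0.03 among those that averaged 5 RPKM or more. It was 0.13 with the control rescaled to an all-gene median of 0, and 0.12 after quantile normalization. MYC, from 12792 clusterin and 14446 control reads, had a ratio of 1.02 (0.996 to 1.05). KLF6, a zinc finger factor induced by injury and serum, stood at 2.12 RPKM with clusterin and 1.87 in the control, with a ratio of 1.14 (0.972 to 1.33). NR4A1 had a ratio of 1.02 (0.937 to 1.10), at 11.5 RPKM in the clusterin library and 11.4 in the control. KLF4, a zinc finger factor of epithelial differentiation, had the second highest ratio after EGR1. It stood at 1.04 RPKM in the clusterin library and 0.740 in the control, from 101 clusterin and 83 control reads; its ratio was 1.40 (1.04 to 1.90). KLF2, a factor of vascular quiescence, stood at 0.256 RPKM with clusterin and 0.222 in the control, from 14 reads in each library, too few to resolve any difference at this depth.

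The immediate early response genes lay on both sides of a ratio of 1. IER5, a regulator of heat shock factor activity, stood at 28.0 RPKM in the clusterin library and 25.1 in the control, from 2176 clusterin and 2245 control reads. Its ratio of 1.12 (1.05 to 1.19) was small, yet it had the smallest q of the 34 genes in the authors' deposited table, at 0.00479. PHLDA1, a pleckstrin homology-like protein used as a marker of ERK output, stood at 1.41 RPKM with clusterin and 1.15 in the control, with a ratio of 1.23 (1.03 to 1.46). IER2 differed little, at 40.5 RPKM with clusterin and 39.8 in the control, a ratio of 1.02 (0.966 to 1.07), though its locus overlaps STX10 on the other strand, at 36.7 RPKM with clusterin and 36.8 in the control. CYR61, a secreted matricellular protein and integrin ligand, stood at 4.75 RPKM with clusterin and 4.81 in the control, a ratio of 0.986 (0.854 to 1.14).

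IER3, which restrains apoptosis and prolongs ERK signalling, had the lowest ratio of the genes with at least 20 reads. It had 59 clusterin and 110 control reads and a ratio of 0.618 (0.443 to 0.856), with a q of 0.0273 in the authors' deposited table. Its deposited levels of 0.257 RPKM in the clusterin library and 0.415 in the control need care. The length by which its reads were divided was 6930 bp, although the listed locus, chromosome 6 from 30743199 to 30744550, spans only 1352 bp. Of the genes with at least 100 reads, 125 had such a length above their listed span. Divided by the span, the same reads would give 1.32 RPKM with clusterin and 2.13 in the control, a log2 difference of -0.43 in place of -0.17. The ratio of reads does not depend on the length.

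Both mRNA decay factors had lower levels in the clusterin library, although the interval of ZFP36 included a ratio of 1. ZFP36, tristetraprolin, binds AU-rich elements of short-lived transcripts, immediate early and cytokine mRNAs among them, and speeds their decay; ZFP36L1 is its close relative. ZFP36 stood at 1.05 RPKM in the clusterin library and 1.36 in the control, from 61 clusterin and 91 control reads, for a ratio of 0.773 (0.549 to 1.08). ZFP36L1 stood at 3.58 RPKM with clusterin and 4.21 in the control, from 480 clusterin and 650 control reads, for a ratio of 0.851 (0.755 to 0.959). Its interval lay below 1 but included the all-gene median ratio of 0.951. A log2 difference lower than the -0.18 of ZFP36L1 was seen in 13.2% of all genes. In units of the spread of genes of like depth, the pair lay 0.92 and 1.42 robust SD below their depth classes.

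The dual specificity phosphatases remove the activating phosphates from MAP kinases. DUSP1 made up 88.1% of their summed RPKM in the clusterin library and 87.1% in the control. Its ratio of 1.05 (1.02 to 1.08), from 8776 clusterin and 9671 control reads, was the smallest departure with an interval above 1. DUSP6, the cytoplasmic phosphatase of ERK and a sensitive readout of ERK activity, stood at 2.05 RPKM with clusterin and 1.70 in the control, with a ratio of 1.21 (0.982 to 1.49). DUSP7, its close cytoplasmic relative, lay on the other side, at 3.42 RPKM in the clusterin library and 3.996 in the control. The ratio of DUSP7 was 0.856 (0.746 to 0.982), an interval that includes the all-gene median of 0.951. DUSP4, a nuclear phosphatase, stood at 1.16 RPKM with clusterin and 1.07 in the control, a ratio of 1.09 (0.920 to 1.28). DUSP5, a nuclear phosphatase of ERK, stood at 11.1 RPKM with clusterin and 11.7 in the control, a ratio of 0.945 (0.865 to 1.03). The 5 phosphatases thus lay on both sides of 0, with log2 differences from -0.18 to 0.18 and a median of 0.06. That median was 0.02 with a pseudocount of 5 RPKM and -0.01 among those that averaged 5 RPKM or more. It was 0.10 with the control rescaled to an all-gene median of 0, and 0.08 after quantile normalization.

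Sprouty and SPRED proteins inhibit the pathway between receptor and RAF. SPRY2 stood at 3.27 RPKM with clusterin and 2.79 in the control, with a ratio of 1.17 (0.972 to 1.42). SPRED1, which recruits the RAS inactivator neurofibromin, was at 2.70 RPKM in both libraries, and its reads were not recovered. SPRED2 was at 1.61 RPKM with clusterin and 1.79 in the control, with a ratio of 0.896 (0.756 to 1.06), and SPRY4 at 0.278 RPKM with clusterin and 0.257 in the control, with a ratio of 1.08 (0.708 to 1.65). The PEA3-type ETS factors ETV4 and ETV5, transcribed in answer to ERK, had a median log2 difference of -0.04, which turned to 0.02 with the control rescaled to an all-gene median of 0 and after quantile normalization. ETV4 stood at 6.07 RPKM with clusterin and 5.97 in the control, with a ratio of 1.02 (0.906 to 1.14), and ETV5 at 5.45 RPKM with clusterin and 5.94 in the control, with a ratio of 0.918 (0.832 to 1.01). No interval of these 5 genes with recovered reads lay beyond 1.

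**Figure D3:**
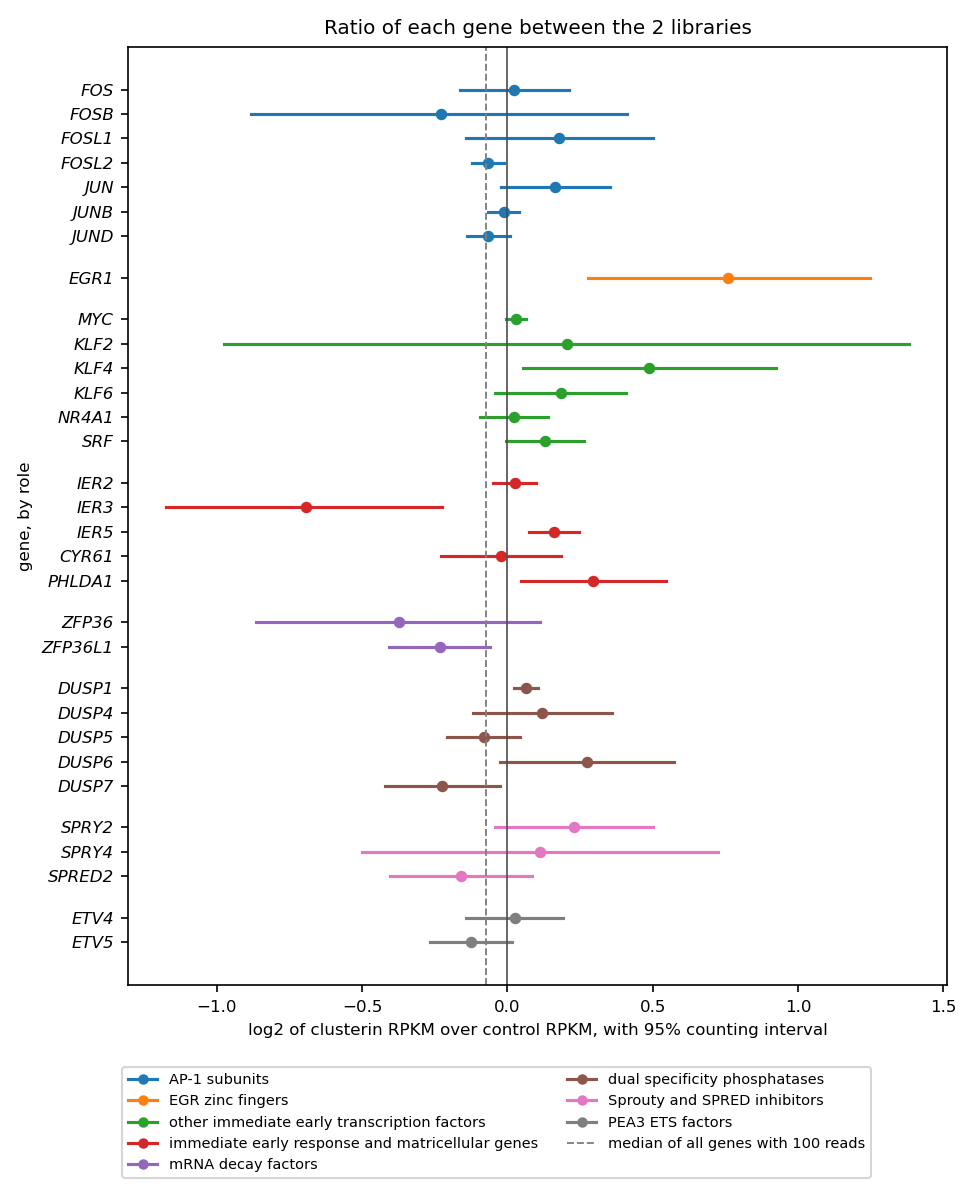
Log2 of the clusterin over control RPKM ratio for the 31 genes with at least 20 reads, with 95% counting intervals, grouped and coloured by role; the solid line is a ratio of 1 and the dashed line the median of genes with at least 100 reads. EGR1 (ratio 1.69) and IER3 (ratio 0.618) lie furthest to either side, and most intervals cross the solid line.

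Counting error is only part of the spread between the libraries. Genes with 20 to 100 reads spread by 1.23 times their counting error, and genes with 10000 reads or more by 2.90 times, measured as a robust SD over genes. Against this wider spread, 6 of the 31 genes lay more than 2 robust SD from the median of their depth class, or 19.4%, where 6.21% of all genes did. EGR1 lay 2.90 above, IER5 2.67, PHLDA1 2.15, DUSP1 2.04 and DUSP6 2.02, and IER3 lay just past 2 below. Most of these sit at the edge of the 2 SD line, and KLF4, at 1.99, lay just inside it. Another 15 of the 31 genes lay within 1 robust SD. By construction most genes of a depth class lie that close, and their exact share was not counted.

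**Figure D4:**
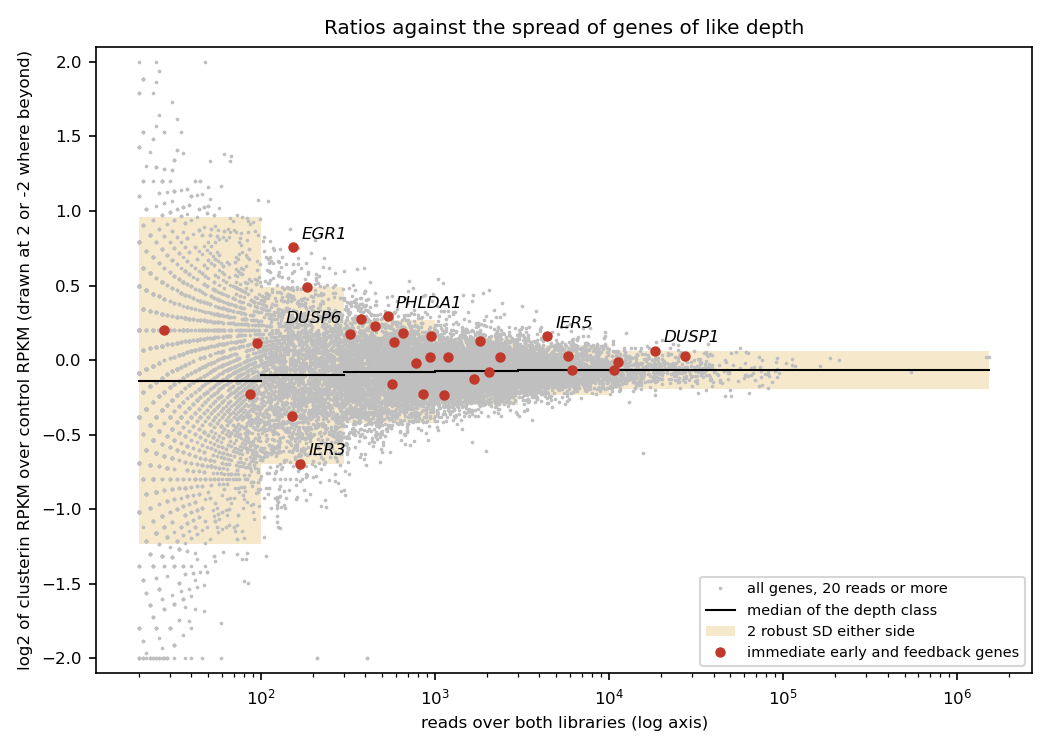
Log2 of the clusterin over control RPKM ratio against the reads over both libraries (log axis) for all genes with at least 20 reads (grey) and for 31 immediate early and feedback genes (red); black lines are the median of each depth class and the shaded band is 2 robust SD either side. EGR1, IER5, PHLDA1, DUSP1 and DUSP6 lie above the band and IER3 on its lower edge.

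In the pathway lists, a measured gene is one that averaged 1 RPKM or more, and 29.8% of all such genes lay above 0. The genes of the cascade itself lay about where all genes did. The RAS to ERK list, which also holds the RAS inactivators NF1 and RASA1 and RPS6KA kinases, had 19 measured genes. Of these, 7 lay above 0 and 12 below, with a median of -0.06, the all-gene value at this rounding. The median was 0.00 under both other scalings (the control rescaled to an all-gene median of 0, and quantile normalization). MAP2K2, a MEK kinase and the highest of them, stood at 54.6 RPKM in the clusterin library and 50.9 in the control, a ratio of 1.07 (1.02 to 1.13). RASA1, a RAS inactivator, had the highest log2 difference, 0.16, with a ratio of 1.14 (1.03 to 1.27). Of 16 JNK and p38 cascade genes 5 lay above 0, with a median of -0.07, and -0.01 under both other scalings. Highest were MAP2K3, a kinase that activates p38, with a ratio of 1.15 (1.001 to 1.33), and MAP3K1, a kinase upstream of JNK, with 1.10 (1.01 to 1.19). Lowest were MAPK11, a p38 kinase, with a ratio of 0.786 (0.618 to 0.997), and RPS6KA5, a nuclear kinase below p38 and ERK, with 0.752 (0.595 to 0.948). All 6 measured SRF cofactors lay below 0, with a median of -0.05, which became 0.01 under both other scalings; ELK4, an ETS partner of SRF, had a ratio of 0.871 (0.806 to 0.940). None of the 3 lists held a gene 25% or more above the control or 20% or more below it on the log2 scale.

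The receptors and ligands upstream lay on both sides of 0. EGFR, the EGF receptor, stood at 19.9 RPKM in the clusterin library and 20.9 in the control, a ratio of 0.953 (0.915 to 0.993), and of 5 measured genes of its family and ligands 2 lay above 0. The ligand EPGN had the highest log2 difference of these, 0.21, with a ratio of 1.23 (1.02 to 1.49), and the receptor ERBB2 the lowest, -0.13, with a ratio of 0.8995 (0.823 to 0.983). Among FGF receptors and ligands, 5 of 9 genes were listed at 0, and those that averaged 1 RPKM or more were FGF2, at 8.44 RPKM with clusterin and 8.03 in the control, and FGFR4, at 3.05 RPKM with clusterin and 3.10 in the control. FGFR1, a receptor below that level, stood at 0.660 RPKM with clusterin and 0.826 in the control, a ratio of 0.799 (0.639 to 0.998), and FGFR3 had a ratio of 1.07 (0.830 to 1.37).

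On the log2 scale, 1 of 12 other measured phosphatases and feedback genes lay 25% or more above the control. Of 25 other measured immediate early genes, 1 lay that far above and 1 lay 20% or more below, and none of 8 other ERK output genes did either, where 1.36% of all genes lay above and 3.29% below. ERRFI1, an inhibitor of the EGF receptor that growth factor signals induce, stood at 10.8 RPKM in the clusterin library and 7.77 in the control, from 1118 clusterin and 930 control reads. Its ratio of 1.39 (1.27 to 1.51) gave a log2 difference of 0.42. DUSP22, an atypical phosphatase of JNK signalling, followed on that list of phosphatases and feedback genes, at 3.36 RPKM with clusterin and 2.68 in the control, with an interval of the ratio from 0.998 to 1.57. Of its 12 measured genes 3 lay above 0, a share near that of all genes, and RASA2, a RAS inactivator, was lowest, at a ratio of 0.760 (0.597 to 0.964). Of 25 other measured immediate early genes 12 lay above 0, with a median of -0.02 that became 0.04 under both other scalings and 0.01 with no filter on level. CSRNP1, an immediate early nuclear protein, reached 4.48 RPKM with clusterin and 3.31 in the control, a ratio of 1.36 (1.18 to 1.55), and ATF3, a stress-induced factor, stood at 0.805 RPKM with clusterin and 1.58 in the control, a ratio of 0.509 (0.377 to 0.681). RHOB, a small GTPase, had a ratio of 1.10 (1.07 to 1.13) at 125 RPKM with clusterin and 114 in the control, and TRIB1 one of 0.821 (0.703 to 0.957). ID1, the highest of these, differed little, at 144 RPKM with clusterin and 148 in the control. Of 8 other measured ERK output genes 4 lay above 0, led by EPHA2 with a ratio of 1.13 (1.07 to 1.19), and CCND1, cyclin D1, stood at 25.0 RPKM with clusterin and 23.4 in the control.

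**Figure D5:**
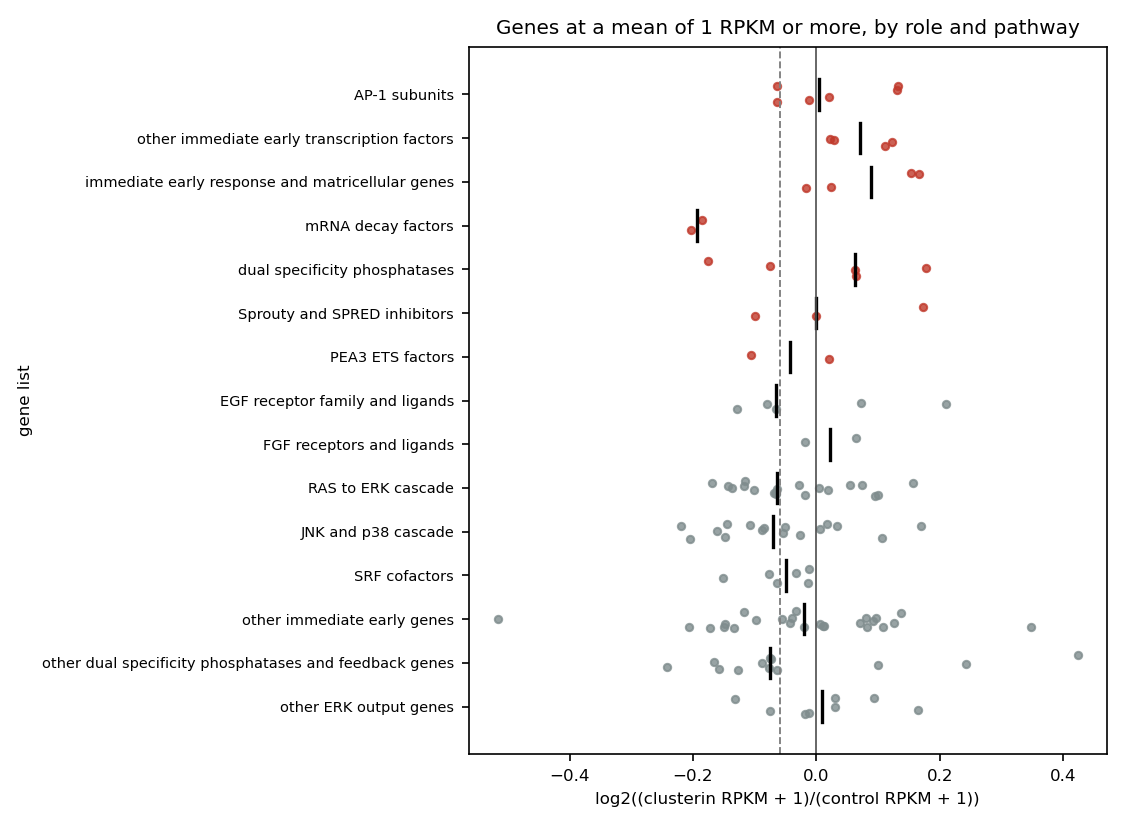
Log2((clusterin RPKM + 1)/(control RPKM + 1)) of genes that averaged 1 RPKM or more, 1 point per gene, for the role groups of the 34 genes (red) and the pathway lists (grey); black bars are list medians, the solid line is 0 and the dashed line the median of all genes, -0.06. The cascade lists centre on the dashed line, both decay factors lie left of it, and ERRFI1, CSRNP1 and ATF3 are the most distant points.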

How the data were processed

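RNA of 2 D407 libraries, 1 clusterin and 1 control, was analysed from 1 deposited table; groups came from the labels. Trizol extraction, DNase I digestion and oligo(dT) enrichment preceded sequencing, per the labels' protocols. The tools named in the submitters' processing notes are Bowtie, TopHat and Cuffdiff, with hg19 as the build. Neither versions nor the strand setting are given in the sources used here. Although the notes name hg19, listed positions of all 34 genes lay within 2000 bp of RefSeq on GRCh38 at 1 end at least. Coordinates are given on GRCh38.

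The authors deposited 1 RPKM level per gene and library; the file headers do not name this unit, which was read from the values. The authors also deposited a log2 fold change, which equalled the log2 ratio of the levels for 20525 of 20525 genes above 0 in both, and a p-value and q-value per gene. For 482 of 523 small RNA genes, both levels times length gave whole reads within 0.02 at 1 total per library. The deposited p equalled an Audic-Claverie p within 0.02% for 462 of these 482. The notes name Cuffdiff, but which tool gave the deposited p and q was not established. For other genes the length, between 50 and 40000 bp, was sought at which both levels were whole reads and an Audic-Claverie p equalled the deposited p within 0.02% (0.6% for p below 0.0001). Reads were recovered for 20504 of 20642 genes above 0 (99.3%). On simulated data for clusterin over control, reads were recovered for 99.0% of 2000 genes, and 100.0% of these within 1%. Of the counting intervals, 95.1% held the simulated ratio. The simulated reads carried Poisson counting error only and were modelled on genes whose reads had been recovered. They therefore do not test the wider spread between the libraries or the genes without recovered reads. Reads cannot be told from read pairs.

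With 1 library per group no test was made; ratios carry exact Clopper-Pearson intervals and levels Poisson intervals, which cover counting error only. A pseudocount of 1 RPKM and a mean of at least 1 RPKM were used. The 34 genes, lists and size rules were chosen with earlier results of these data known. All 34 genes are named; of each pathway list, the highest level, the 2 highest and the 2 lowest log2 differences guided the naming. Some genes of these lists are not reported here. Promoters came from RefSeq tables. Python 3.11.15 and SciPy 1.17.1 were used.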

Additional observations from a re-analysis of the deposited data

How the results depend on the processing

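The median log2 difference of the genes was 0.02 as reported, 0.083 with the control rescaled to a median of 0 over all genes, and 0.067 after quantile normalization; the other settings gave 0.01 to 0.02. The count 25% or more above or 20% or more below the control, 0 as reported, was 1 with a pseudocount of 0.1 RPKM and 4 by the ratio of reads, a setting chosen after seeing the data; a smaller pseudocount shrinks low genes less. The count above the median of all genes was 9 with a mean of at least 5 RPKM, where fewer genes are tested, and 18 to 23 otherwise. Dividing ratios by the median of all genes, also chosen after seeing the data, gave 13 intervals above 1 in place of 5, and 1 below in place of 4. The count past 2-fold was 0 in every setting run. Of 33 genes above 0, 28 kept their sign with the control rescaled and 30 after quantile normalization. A pseudocount cannot change the sign of a difference, so the other pseudocounts do not test it. No paired analysis was possible because each group holds 1 library. Depth limits the low genes: EGR2, KLF2, FOSB and SPRY4 had under 100 reads. Protein sequences, planned as a description, were not used here.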
